A study of Mus musculus with 8 samples.

Results

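The genes described here were 10 genes of the endocardial cushion mesenchyme and of the epithelial-to-mesenchymal transition (EMT) that forms it, named as Has2, Vcan, Hapln1, Postn, Twist1, Sox9, Snai1, Snai2, Pdgfra and Nfatc1. They were picked by symbol, with earlier results of these data known, from the 20701 gene symbols of the deposited table, and for a symbol with several transcripts the one with the highest mean raw count was read. All 10 passed the filter on low counts and were among the 13769 genes tested. Polyadenylated RNA was sequenced from OFT/RV tissue, that is the outflow tract together with the right ventricle, of E10.5 mouse embryos, with 1 embryo per library. The 4 control libraries (CTRL) came from embryos labelled wild type, and the other 4 (Isl1_hypo) from Isl1 hypomorphic embryos, all labelled C57BL/6. The hypomorphs were homozygous for the Isl1-f;neo allele (Isl1-f;neo/f;neo), a germline allele that is not restricted to the heart. The comparison asked how a reduced dose of Isl1, a LIM homeodomain factor of second heart field progenitors, bears on gene expression in the tissue that those progenitors build.

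Endocardial cushions are the swellings from which heart valves and part of the septa arise. In the outflow tract the myocardium lays down a matrix rich in hyaluronan and versican, endocardial cells lose their junctions and migrate into it as mesenchyme, and neural crest cells join them from the pharyngeal arches. Snail and Twist factors act in the mesenchymal switch, Sox9 marks the resulting mesenchyme, and Nfatc1 marks endocardial cells that stay in the lining.

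The libraries held 29748458 to 46678973 counts in CTRL and 18422245 to 33050298 in Isl1_hypo. Levels below are CPM, that is read counts relative to the total of the library, scaled with TMM factors unless another scale is named. Isl1 stood at 29.6, 61.5, 46.2 and 51.3 CPM in CTRL and at 12.7, 6.86, 7.71 and 11.4 CPM in Isl1_hypo, which corresponds to a log2 fold change of -2.29 (SE of 0.256, edgeR adjusted p = 0.0077), and each library matched its label. Myocardial markers (7 genes, among them Tnnt2 and Actc1) summed to 38200 to 44200 CPM of library total in CTRL and 39100 to 47000 in Isl1_hypo. Actc1 made up a large part of that sum, and Myh7 (log2 fold change -0.49, groups not overlapping) and Myh6 (-0.31) were lower in Isl1_hypo at an unadjusted p under 0.05, neither past the adjusted limit. Of the 7 genes 3 had a lower and 4 a higher level, with a median of 0. Actc1 (0.17) and Nkx2-5 (0.14) were among the higher and did not pass the unadjusted limit. Endothelial markers summed to 564 to 694 CPM of library total in CTRL and 452 to 570 in Isl1_hypo. Myocardium and endothelium were therefore represented. Of the neural crest markers, Ets1 (59.4 ± 2.03 CPM in CTRL, SD, n = 4) and Crabp1 (47.7 ± 3.38) were well expressed, whereas Tfap2a stood at 0.477 ± 0.119. Sox10, Foxd3 and Tfap2b were too low to be tested, so the list rests mainly on Ets1 and Crabp1. Isl1_hypo replicate 3 stood apart from the other 7 libraries on the first principal component, and Y-linked genes were expressed in CTRL replicate 3 and Isl1_hypo replicates 1, 3 and 4. The libraries are bulk tissue, in which fewer cells of a type and less RNA per cell cannot be told apart.

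None of the 10 genes differed between the groups at an adjusted p under 0.05 (edgeR quasi-likelihood test, Benjamini-Hochberg over all genes tested), where 37 of all genes tested, 0.269%, did. DESeq2 and limma-voom also called 0 of the 10 after adjustment, where they called 2.32% and 0.973% of all genes. At an unadjusted p under 0.05, 4 of the 10 were lower in Isl1_hypo (Snai1, Twist1, Vcan and Sox9) and none was higher. Among all genes tested 11.9% passed that limit, 6.17% lower and 5.69% higher in Isl1_hypo. At the same unadjusted limit DESeq2 gave these 4 genes (13.2% of all genes), and limma-voom gave them and Nfatc1, which was higher in Isl1_hypo (13.7% of all genes). In all, 7 of the 10 had a lower and 3 a higher fitted level in Isl1_hypo, with a median log2 fold change of -0.318 beside 0.006 over all genes. Only Snai1 had 2 groups that did not overlap, against 8.5% of all genes in either direction and 4.44% in the lower direction. The median was -0.096 and the count at the unadjusted limit was 1 without CTRL replicate 1, and that count was 2 without Isl1_hypo replicate 2 or 4. Of the 8 fits that left out 1 library, the unadjusted limit was missed in 3 for Vcan, in 4 for Twist1, in 4 for Sox9 and in 0 for Snai1. A globin covariate gave a median of 0.015 and a count of 1, which was Has2 at a higher level and none of the 4, and a Y-linked covariate gave a count of 0. The share of all genes at the unadjusted limit was not computed for these fits. In the fits with a count of 0 to 2, the number of all genes past the adjusted limit also fell, from 37 to between 0 and 12.

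**Figure D1:**
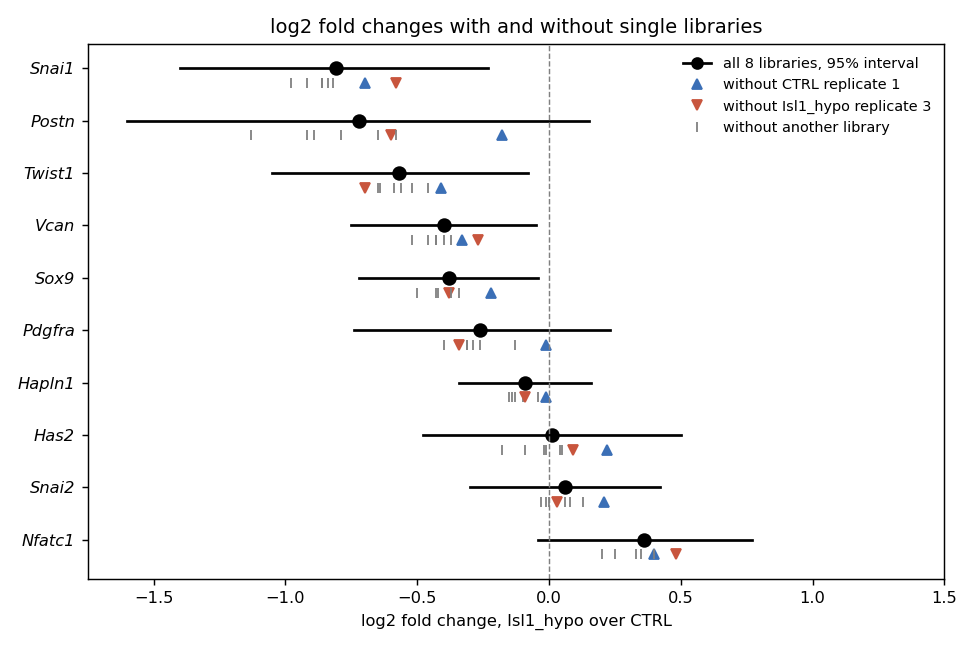
log2 fold change (Isl1_hypo over CTRL, x axis) of each of the 10 genes (y axis), with black points and bars for the value and 95% interval over all 8 libraries and smaller marks for fits without 1 library. The interval lies below 0 for Snai1, Twist1, Vcan and Sox9, and the Postn value moves from -0.72 to -0.18 without CTRL replicate 1.

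Snai1 encodes a zinc finger repressor that silences cadherin genes at the start of EMT. Its row (NM_011427, mm9 chromosome 2, 167363695 to 167368314, plus strand) held 325 to 1629 raw counts per library. It stood at 48, 36.7, 34.9 and 34.8 CPM in CTRL and at 29.3, 26.2, 10.3 and 22.2 CPM in Isl1_hypo. All 4 hypomorphic libraries lay below all 4 controls, with Isl1_hypo replicate 3 the lowest. The group means were 38.6 ± 6.3 and 22 ± 8.34 CPM (SD, n = 4 each), and the log2 fold change was -0.81 (SE 0.266, 95% interval -1.4 to -0.23, adjusted p = 0.283). Without Isl1_hypo replicate 3 it was -0.58, and over the 22 alternative analyses it ranged from -0.98 to -0.4 with adjusted p from 0.0752 to 1. Snai2, the related factor also called Slug, stood at 48.9, 32.8, 37.4 and 30.5 CPM in CTRL and at 44.2, 37.1, 41.3 and 33.4 CPM in Isl1_hypo. Here the groups overlapped widely, and the log2 fold change of 0.06 had a 95% interval of -0.3 to 0.42 (SE 0.165, adjusted p = 0.917). The difference between the Snai1 and Snai2 fold changes was not tested.

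Twist1, a basic helix-loop-helix factor of cushion mesenchyme, was the lowest of the 10 in reads, with 132 to 484 raw counts per library. It stood at 15.5, 11.9, 9.61 and 9.7 CPM in CTRL and at 7.17, 6.03, 9.99 and 8.3 CPM in Isl1_hypo. Isl1_hypo replicate 3, the lowest library for Snai1, was the highest of its group for Twist1 and the single one inside the control range. The log2 fold change was -0.57 (SE 0.223, 95% interval -1.05 to -0.08, adjusted p = 0.343). Removing a trend in GC content brought it to -0.34, no longer at the unadjusted limit. Sox9, an HMG box factor of cushion and cartilage precursors, stood at 325, 224, 247 and 181 CPM in CTRL and at 207, 172, 187 and 185 CPM in Isl1_hypo. The hypomorphic libraries were close together and sat at the lower end of a wider control range. Its log2 fold change was -0.38 (SE 0.157, 95% interval -0.72 to -0.04, adjusted p = 0.368), and it was -0.22 without CTRL replicate 1, the highest control. With a trend in transcript length removed Sox9 stood at -0.29, no longer at the unadjusted limit.

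The 250 bases before the start sites of Snai1, Twist1 and Vcan are shown because these genes were lower in Isl1_hypo at the unadjusted limit. Sox9, the other such gene, is named only. The sequences are RefSeq's, GRCm38.p6, read 5′ to 3′ on the strand of the gene, with capitals for an E-box of the letters CACCTG or CAGGTG, the kind that Snail and Twist factors can bind.
Snai1, chr2:167537945-167538194, plus strand: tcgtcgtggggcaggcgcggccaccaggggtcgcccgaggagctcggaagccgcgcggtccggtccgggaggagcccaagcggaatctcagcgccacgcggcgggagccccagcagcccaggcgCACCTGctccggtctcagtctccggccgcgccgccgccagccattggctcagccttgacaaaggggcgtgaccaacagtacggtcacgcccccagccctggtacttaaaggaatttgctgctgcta
Twist1, chr12:33957421-33957670, plus strand: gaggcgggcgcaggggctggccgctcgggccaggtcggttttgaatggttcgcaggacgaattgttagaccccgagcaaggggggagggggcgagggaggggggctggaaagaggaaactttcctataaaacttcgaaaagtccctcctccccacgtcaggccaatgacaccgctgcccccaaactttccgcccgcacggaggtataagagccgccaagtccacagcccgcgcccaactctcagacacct
Vcan, chr13:89742513-89742762, minus strand: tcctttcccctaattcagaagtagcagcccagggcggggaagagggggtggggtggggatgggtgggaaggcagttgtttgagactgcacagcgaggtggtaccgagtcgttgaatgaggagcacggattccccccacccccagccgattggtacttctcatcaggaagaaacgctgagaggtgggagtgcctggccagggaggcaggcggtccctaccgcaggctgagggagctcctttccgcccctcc
The Snai1 window had 70% GC, 27 CpG and 1 such E-box, 126 bases before the start. The Twist1 window (62.4% GC, 18 CpG) and the Vcan window (62.4% GC, 10 CpG) held none. Searched on both strands, the E-box occurred in 17.2% of 32851 mouse promoter windows of the same length. The letters CTAATG or CATTAG, which resemble the site of Isl1 and other LIM homeodomain factors, were in none of the 3 windows and in 6.4% of all of them.

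**Figure D2:**
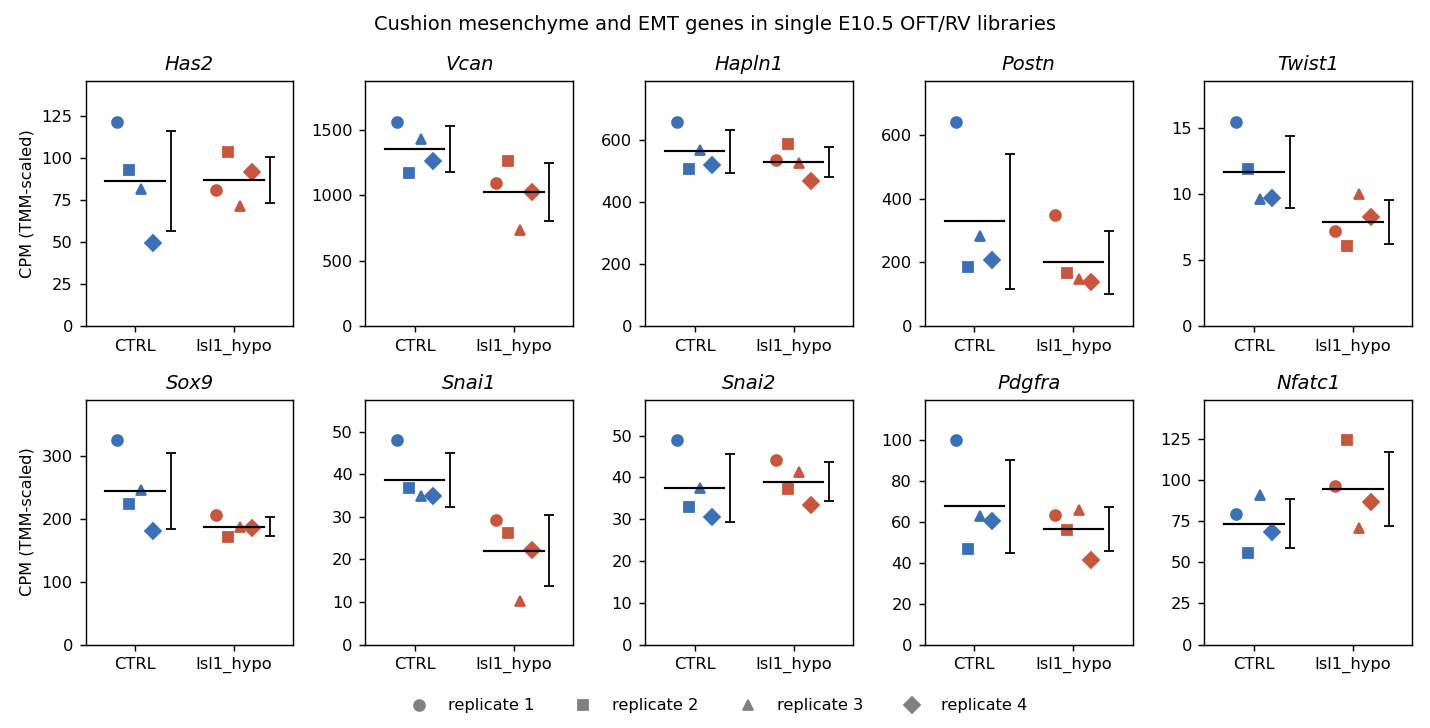
CPM (y axis, linear from 0) of each of the 10 genes in the 4 CTRL and 4 Isl1_hypo libraries (x axis), with 1 symbol per replicate number, a line at the group mean and a bar of ± 1 SD. Snai1 is the single panel in which the groups do not overlap, and CTRL replicate 1 is the highest control in 9 of the 10 panels.

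The matrix genes code for the cushion jelly and its cross-links. Has2 makes hyaluronan, the main polymer of that jelly. It stood at 122, 93, 82 and 49.6 CPM in CTRL and at 81.4, 104, 71.8 and 91.8 CPM in Isl1_hypo. The controls spanned the whole range of the hypomorphic libraries, and the log2 fold change was 0.01 (SE 0.225, 95% interval -0.48 to 0.5, adjusted p = 0.989). The interval allows a level between 0.716 and 1.42 times that of CTRL. Has2 moved to -0.18 without CTRL replicate 4 and to 0.89 with a globin covariate. In that covariate fit the unadjusted edgeR p was 0.00166 and the adjusted p was 1, and over all 22 alternatives the adjusted p ranged from 0.727 to 1.

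Vcan, which encodes the proteoglycan versican, stood at 1560, 1170, 1430 and 1260 CPM in CTRL and at 1090, 1260, 731 and 1030 CPM in Isl1_hypo. Replicates 1, 3 and 4 of Isl1_hypo lay below every control, and replicate 2 lay inside the control range. The mean was 1350 ± 174 CPM in CTRL and 1030 ± 221 in Isl1_hypo (SD, n = 4 each), with a log2 fold change of -0.4 (SE 0.159, 95% interval -0.75 to -0.05, adjusted p = 0.348). Removing a trend in transcript length brought it to -0.21, no longer at the unadjusted limit, and Vcan had the longest row of the 10 genes (12415 bases). Hapln1, whose link protein ties versican to hyaluronan, stood at 659, 508, 568 and 520 CPM in CTRL and at 535, 588, 528 and 468 CPM in Isl1_hypo. Its groups overlapped and the log2 fold change was -0.09 (SE 0.114, 95% interval -0.34 to 0.16, adjusted p = 0.784). Vcan (89794915 to 89882117, minus strand) and Hapln1 (89680241 to 89751437, plus strand) are neighbours on mm9 chromosome 13 with 43477 bases between them, and they lie 27.21 and 27.34 Mb from Isl1 on the same chromosome.

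Vcan is spliced with or without 2 large exons that carry its glycosaminoglycan chains, GAG-alpha (mm9 chromosome 13, 89842523 to 89845402) and GAG-beta (89827890 to 89833106). Their reads were obtained as differences between the counts of 4 of the 5 Vcan transcripts, a step chosen after the values were seen. Per kilobase, the GAG-alpha exon held 47.7 ± 10.4 CPM in CTRL and 37.1 ± 13.3 in Isl1_hypo, GAG-beta held 124 ± 14.2 and 93.2 ± 20.7, and the exons shared by all these forms held 132 ± 16.6 and 101 ± 17.6 (SD, n = 4 each). All 3 were lower on average by a similar amount, with log2 differences of -0.42, -0.43 and -0.4 (two-sided exact permutation p = 0.286, 0.0857 and 0.0571). As a percent of the shared exons, the GAG-alpha density was 38.6, 31, 38.7 and 34.4 in CTRL and 39.3, 42.8, 25.2 and 35.8 in Isl1_hypo. Isl1_hypo replicate 3 was the lowest and replicate 2 the highest of the 8, and the group means were 35.7 and 35.8. The GAG-beta density was 93.7 ± 2.92% of the shared exons in CTRL and 91.8 ± 5.4% in Isl1_hypo. Neither share nor the ratio of both exons differed (two-sided exact permutation p = 1, 0.571 and 0.857, each 1 after adjustment over the 3), and 4 against 4 libraries cannot go below 0.0286.

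**Figure D3:**
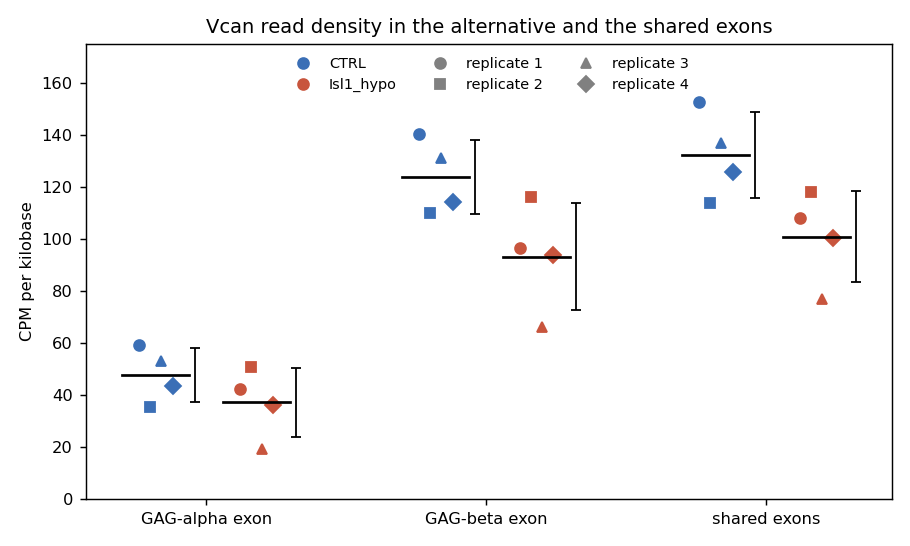
CPM per kilobase (y axis, linear from 0) in the GAG-alpha exon, the GAG-beta exon and the shared exons of Vcan (x axis), 1 symbol per library, with a line at the group mean and a bar of ± 1 SD. In every segment the groups overlap, and Isl1_hypo replicate 3 is the lowest library.

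Postn encodes periostin, a matricellular protein of cushion mesenchyme and later valve fibroblasts. It stood at 642, 187, 283 and 207 CPM in CTRL and at 348, 166, 148 and 137 CPM in Isl1_hypo. One library of each group was far above the rest of its group, replicate 1 in both cases, and the other 3 hypomorphic libraries lay below every control. The log2 fold change was -0.72 (SE 0.399, 95% interval -1.6 to 0.15, adjusted p = 0.502), with -0.18 without CTRL replicate 1 and -1.13 without Isl1_hypo replicate 1. Postn was the most variable of the 10 genes, with a coefficient of variation of 64.3% in CTRL and 49.8% in Isl1_hypo.

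Pdgfra, the receptor through which PDGF ligands act on mesenchyme and neural crest, stood at 99.9, 46.9, 62.9 and 60.6 CPM in CTRL and at 63.3, 55.8, 65.7 and 41.4 CPM in Isl1_hypo. The groups overlapped and CTRL replicate 1 was again the highest. The log2 fold change was -0.26 (SE 0.22, 95% interval -0.74 to 0.23, adjusted p = 0.671), and it was -0.01 without that library. Nfatc1, the calcineurin-dependent factor of the endocardial lining, stood at 79.5, 55.3, 90.5 and 68.3 CPM in CTRL and at 96, 124, 70.8 and 86.5 CPM in Isl1_hypo. It was the one gene with a higher hypomorphic mean by more than a few percent, 128% of CTRL, although Isl1_hypo replicates 3 and 4 lay within the control range. The log2 fold change was 0.36 (SE 0.186, 95% interval -0.04 to 0.77, adjusted p = 0.477). Over the 22 alternatives it ranged from 0.2, without Isl1_hypo replicate 2, to 0.52, without both Isl1_hypo replicates 1 and 3, and in 6 of them, each with a higher level, the unadjusted p was under 0.05. The single libraries whose removal brought it under that limit were CTRL replicate 3 and Isl1_hypo replicate 3 (0.48 each). Its value also depended on the transcript, since 2 of the 6 Nfatc1 transcripts gave 0.37 and 0.36 and the other 4 gave 0.26 to 0.28.

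Scaled to transcript length, 3 of the 4 matrix genes had the highest control levels, and the fourth, Has2, stood among the transcription factors. Hapln1 (112 CPM per kilobase), Vcan (109) and Postn (103) were highest and their control ranges overlapped. Sox9 followed with 59 CPM per kilobase. Snai1 (23.9), Has2 (20.4), Snai2 (18.6), Nfatc1 (15.3), Pdgfra (10.3) and Twist1 (7.18) came after it. Sox9 and Snai1 were the single pair of neighbours in this order whose control libraries did not overlap. In Isl1_hypo, Snai1 averaged 13.6 CPM per kilobase, below the 20.6 of Has2, the 19.4 of Snai2 and the 19.7 of Nfatc1.

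The 10 genes also varied between libraries of the same group. CTRL replicate 1 was above the control mean for all 10 genes, by a median of 0.42 on the log2 scale, and CTRL replicate 4 was below it for all 10, by a median of -0.19. CTRL replicates 2 and 3 had 8 and 5 of the 10 genes below it. In the hypomorphic libraries 7, 6, 8 and 8 of the 10 genes lay below that mean, in the order of replicates 1 to 4, which is within the spread of the controls. The same share over all genes was not computed. Among the markers of other cell types, CTRL replicate 1 had the lowest epicardial sum (54.2 CPM of library total, beside 180 to 304 in the other controls), the lowest myocardial sum (38200) and the lowest globin share of counts (0.212%). It had the highest neural crest sum (117, mostly Ets1 and Crabp1) and cartilage sum (710, mostly Col2a1) of the 8 libraries. Isl1_hypo replicate 3 had the lowest neural crest and cartilage sums (68.4 and 155) and the highest epicardial sum (636) and globin share (2.44%). The part of these markers in the values of the 10 genes was not tested.

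**Figure D4:**
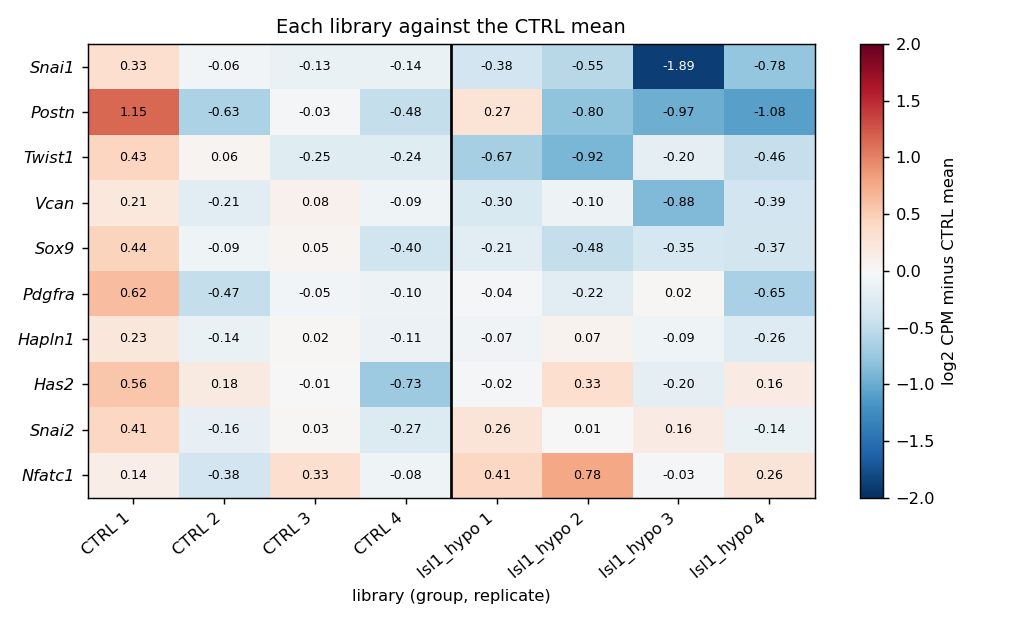
Difference of each library's log2 CPM from the CTRL mean (color and number) for the 10 genes (rows) in the 8 libraries (columns). The column of CTRL replicate 1 is above 0 throughout, and the lowest value is that of Snai1 in Isl1_hypo replicate 3.

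Across the 8 libraries Snai1 and Vcan had the most similar profiles of any pair among the 10 (r = 0.93). Isl1_hypo replicate 3 was the lowest library for both, at -1.89 and -0.88 from the CTRL mean on the log2 scale. The correlation without that library was not computed. Twist1 and Nfatc1 were the most opposed, with r = -0.71. After the group means were removed these values were 0.88 and -0.55, and Postn with Snai2 and Sox9 with Snai2 were the most alike (0.9 each). Outside the 10 genes, the closest profile to Snai1 was that of Plod1 (r = 0.991), to Vcan that of Tnpo2 (0.991), to Has2 that of Cap2 (0.99) and to Twist1 that of Amica1 (0.973). The closest gene was Recql5 for Postn (0.967), Tpx2 for Sox9 (0.961), Dgkq for Pdgfra (0.96), Ncstn for Hapln1 (0.954), Nrep for Snai2 (0.949) and Isg20l2 for Nfatc1 (0.934). These correlations describe 8 libraries that differed in depth and in marker sums, and each best partner is the top of 13769 genes. The part of depth and tissue composition in them was not tested.

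Other matrix genes of the cushion showed lower and higher levels side by side. Of 20 listed, 19 were tested, 14 with a lower and 5 with a higher level in Isl1_hypo, and the median log2 fold change was -0.3. That median was -0.45 without Isl1_hypo replicate 1 and -0.04 with a globin covariate. Tgfbi, a secreted adhesion protein induced by TGF-beta, fell from 373 ± 83.8 to 179 ± 33.1 CPM (SD, n = 4 each), with a log2 difference of -1.06 (SE 0.177) and an adjusted p of 0.0359. That call was lost without CTRL replicate 1, 3 or 4 or without Isl1_hypo replicate 2 or 4 (adjusted p = 0.112, 0.127, 0.0613, 0.103 and 0.13). It was also lost with a Y-linked covariate (0.157), a globin covariate (1) or without both Isl1_hypo replicates 1 and 3 (0.0624), and over 21 alternatives its adjusted p ranged from 2.91e-06 to 1. At the unadjusted limit alone, Fbln2 (-0.97), Tnc (-0.88), Mmp2 (-0.47), Adamts1 (-0.44), Fbln1 (-0.39) and Fn1 (-0.3) were lower. The small leucine-rich proteoglycan genes Dcn (1.89, adjusted p = 0.0727) and Lum (2.14, adjusted p = 0.348) were higher at that limit, with Bgn, of the same class, at -0.07. Lum rested on Isl1_hypo replicate 1, with 196 CPM of library total in that library, 12.7, 23.4 and 9.17 in the other hypomorphic libraries and 25.8, 8.19, 7.87 and 14.4 in CTRL. Dcn did not overlap between the groups, with 119, 69.5, 89.6 and 59.3 CPM of library total in Isl1_hypo and 8.94, 22.2, 20 and 41.4 in CTRL. Epicardial markers were also higher in Isl1_hypo, 5 of 5 at the unadjusted limit, where 5.69% of all genes were higher, and 0 past the adjusted limit. Their sum was 375 to 636 CPM of library total beside 54.2 to 304 in CTRL, and their part in the Dcn and Lum values was not tested.

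Among the inducing signals, Bmp4, a ligand made by outflow myocardium, fell from 227 ± 16.4 to 118 ± 16.8 CPM (SD, n = 4 each), with a log2 difference of -0.94 (SE 0.12) and an adjusted p of 0.0172. The adjusted p was 0.0626 without CTRL replicate 2 and 0.0733 without CTRL replicate 3, 0.0754 with a Y-linked covariate and 1 with a globin covariate, and it ranged from 6.33e-10 to 1 over 21 alternatives. Of the 21 signal genes tested, 15 had a lower and 6 a higher level and the median was -0.19, which became -0.07 without Isl1_hypo replicate 3 and 0 with a globin covariate. Heyl (-0.92), a Notch target, Erbb3 (-0.85), a neuregulin receptor of cushion mesenchyme, and Edn1 (-0.47), which encodes endothelin, were lower at the unadjusted limit. The TGF-beta ligand gene Tgfb2 (-0.25) and the receptor gene Tgfbr2 (-0.16) did not pass it.

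Of the 15 other transition factors, 11 had a lower and 4 a higher level, with a median of -0.3 and none past the adjusted limit. The median was -0.1 with a globin covariate and -0.15 with a trend in GC content removed. Msx2 (-1.44), Twist2 (-0.88), Sox5 (-0.58) and Tbx20 (-0.44) were lower at the unadjusted limit, whereas Zeb1 (0.04) and Zeb2 (-0.22) did not pass it. Of 4 cadherin and filament genes, the endothelial cadherin gene Cdh5 (-0.54) was lower at that limit, with Cdh2 at -0.29, Vim at -0.14 and Cdh11 at 0.12. Pecam1 (-0.58), an endothelial marker, was lower at the same limit while Emcn (0.23) and Npr3 (0.28), also of endocardium, did not pass it. Of the 5 other PDGF genes, Pdgfc (-0.67) was lower at the unadjusted limit. Pdgfrb and Pdgfb (-0.53 each), Pdgfa (0.03) and Pdgfd (0.41) did not pass it. In the calcineurin and NFAT list 2 of 8 genes had a lower level and 6 a higher one, with a median of 0.16 that was 0.04 without Isl1_hypo replicate 3 and 0.07 with a trend in GC content removed. Its 2 lower genes were the Nfatc1 relatives Nfatc2 (-0.66) and Nfatc4 (-0.62), both past the unadjusted limit, whereas Rcan1 (0.21), a target of calcineurin signalling, did not pass it.

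**Figure D5:**
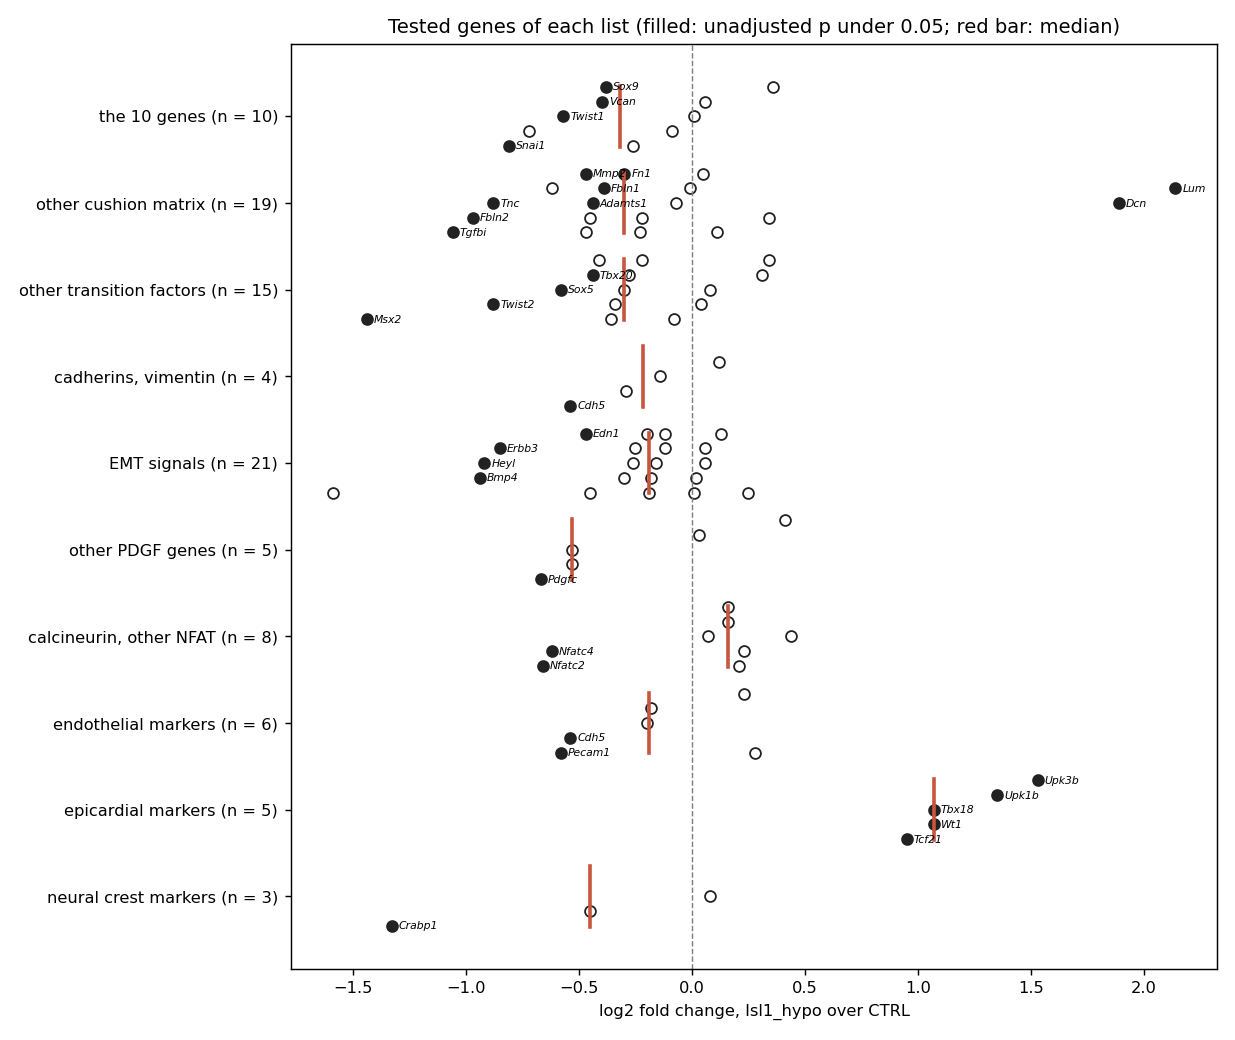
log2 fold change (Isl1_hypo over CTRL, x axis) of every tested gene of the 10 genes, the related lists and 3 marker lists (y axis), filled where the unadjusted p is under 0.05, with a red bar at the median of each list. The medians lie between -0.53 and 0.16 outside the epicardial markers, whose 5 genes all lie above 0.

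Marker sums of the remaining cell types were set side by side for the groups without a test. Neural crest markers summed to 104 to 117 CPM of library total in CTRL and 68.4 to 96.9 in Isl1_hypo. Of the 2 genes that make up most of that sum, Crabp1 stood at a log2 difference of -1.33 (edgeR adjusted p = 0.0688) between the groups and Ets1 at 0.08. Pharyngeal arch markers summed to 8.67 to 12.9 and 1.85 to 7.33, and cartilage markers to 407 to 710 and 155 to 464, with Col9a1 at -2.06 (edgeR adjusted p = 0.0657). Most of the cartilage sum was Col2a1 in every library (632 CPM of library total in CTRL replicate 1), a gene that is also in the matrix list. Acan was low (2.03 CPM in CTRL) and Matn1 was too low to be tested, so that sum does not single out cartilage cells. Epithelial markers summed to 71.3 to 116 and 124 to 302, mostly through Krt8 and Krt18. Cdh1 (15.3 CPM of library total), Cldn6 (38.4), Epcam (9.83) and Esrp1 (6.03) stood apart in Isl1_hypo replicate 1, the highest library of its group for Postn and Lum, and were at most 1.85 in the other 7 libraries. Erythroid markers summed to 40.6 to 144 and 155 to 299. Smooth muscle markers (5370 to 7560 and 4960 to 7420), macrophage markers (7.53 to 12.6 and 2.78 to 12.2) and neuronal markers (48.6 to 76.7 and 25.2 to 49.5) overlapped between the groups. The globin share of counts was 0.212 to 1.19% in CTRL and 1.18 to 2.44% in Isl1_hypo. The part of these cell types in the values of the 10 genes was not tested beyond a fit with the globin level as a covariate.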

How the data were processed

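Single-embryo OFT/RV libraries were sequenced on a BGISEQ-500. Per the study's methods the authors aligned reads to mm9 with STAR and counted exon reads per RefSeq transcript with HOMER. The deposited values used were these raw counts; per the methods reads of both strands were counted, so those of overlapping or antisense genes cannot be separated. The authors' RPKM and comparison columns (log2 fold changes, their errors, p-values) were not used. Columns named CTR and MUT were matched to the CTRL and Isl1_hypo titles by replicate number, and 0 columns belonged to other samples.

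From 31507 transcripts, 1 per symbol was kept (highest mean count). edgeR 4.0.16 (filterByExpr, TMM, glmQLFit, glmQLFTest; R 4.3.3) compared the groups over all 8 libraries with no covariate, with Benjamini-Hochberg adjustment over 13769 genes and a call at 0.05; log2 CPM used a prior count of 2. The biological coefficient of variation was 26.4%. The code was tested on simulated data. Replicates were single embryos. Alternatives were DESeq2 1.42.0, limma 3.58.1 voom, other size factors, filters and transcripts, a replicate block, covariates and leaving out libraries. Named genes were the 10, Isl1, genes of fixed lists with an unadjusted p under 0.05 or the 5 smallest p per list, and the best correlate of each, with other cell types given as summed markers; Zeb1, Zeb2, Tgfb2, Tgfbr2, Bgn and markers too low to be tested were added after their values were seen. The members and lists were chosen with earlier results of these data known.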

Additional observations from a re-analysis of the deposited data

Results flagged for a closer look

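The Snai1 level of CTRL replicate 1 lay apart from the other controls. Its log2 CPM was 5.5855, and the other 3 lay between 5.1243 and 5.2013, so that the gap took a share of 0.833 of the group's range where 0.829 is the 95% limit for 4 samples. Of 20 groups examined (10 genes in 2 groups), 1 had such a library, and chance gives about 1 in 20. Without this library the log2 fold change of Snai1 was -0.7. The cause was not tested.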

How the results depend on the processing

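None of the 10 genes passed an adjusted p of 0.05 under any alternative run. The count over all genes, 37, was 319 with DESeq2, 134 with limma-voom, 0 with the replicate block, 0 with the globin covariate, 3 with the Y-linked covariate and 4 to 48 when 1 library was left out. Same-numbered libraries did not deviate together (r = 0.019, -0.021, 0.013 and 0.022), so the numbers did not pair them. With the replicate block 4 of the 10 genes had an unadjusted p under 0.05 and the median of the 10 was -0.287, with Postn gained and Twist1 lost. Under it the unadjusted edgeR p was 0.00171 for Postn (-0.65) and 0.0526 for Twist1 (-0.56), and Isl1, Tgfbi and Bmp4 had adjusted p = 0.0722, 0.0909 and 0.0763 (0.519, 1 and 1 with the globin covariate). The 4 genes at the unadjusted limit became 1 with the globin covariate (Has2 at 0.89), 0 with the Y-linked covariate and 1 to 5 without 1 library. The share of all genes at that limit was computed only for the main fit, DESeq2 and limma-voom. The median became 0.015 with the globin covariate, -0.162 with the length trend removed, -0.202 with limma-voom and -0.409 to -0.096 without 1 library. With the length trend removed 3 genes were at the unadjusted limit, Snai1 and Twist1 lower and Nfatc1 higher, without Vcan and Sox9. The medians of the other lists ranged over the 21 alternatives from -0.45 to -0.04 (matrix), -0.37 to -0.1 (transition factors), -0.31 to -0.09 (cadherins and vimentin), -0.27 to 0 (signals), -0.66 to -0.05 (PDGF) and 0.04 to 0.21 (calcineurin and NFAT). The globin level itself follows the group, so that fit separates them poorly. The number of non-overlapping genes was 1 to 2 without 1 library (Vcan, Sox9, Postn or Twist1 joined Snai1) and 3 without Isl1_hypo replicates 1 and 3, an alternative added after the data were seen. Groups overlap less often when they hold fewer libraries, and the share of all genes was not computed for these reduced sets. The sign turned for Has2 with upper quartile factors (0), a GC trend removed (-0.07) and without 1 library (-0.18 to 0.22: -0.02, -0.18, -0.09 and -0.01 without CTRL replicate 3 or 4 or Isl1_hypo replicate 2 or 4). It turned for Snai2 (-0.03 to 0.21 without 1 library) without CTRL replicate 4 (-0.03), Isl1_hypo replicate 1 (-0.01) or Isl1_hypo replicates 1 and 3 (-0.08). It turned for Hapln1 with the globin covariate (0.02) and the length trend removed (0.01), and with the globin covariate for Postn (0.07) and Sox9 (0.01). The GC and length trends were also added after the data were seen. The causes were not tested. The overlap count uses CPM alone and was not rerun for tests, block, covariates or trends. With 4 libraries a group the 95% intervals were wide, the widest being that of Postn (-1.6 to 0.15).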
